A study of Mus musculus with 36 samples.

Results

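The comparison described here was the sustained response of cartilage cells to interleukin-1β (IL-1β), read as the difference between 24 h of IL-1β and 0 h in cells that carried a control siRNA. It used 6 of the 36 libraries of the study, namely control_24hr_R1 to R3 against control_0hr_R1 to R3. The cells were a mouse fibroblastic chondrocyte cell line labelled WT, maintained in low glucose DMEM with fetal calf serum, transfected by lipofectamine below confluence with a non-targeting siRNA pool (NT), and taken into the time course 48 h later. The 0 h group (n = 3) had received NT siRNA and no IL-1β, and the 24 h group (n = 3) NT siRNA and IL-1β at 10 ng/ml for 24 h. The other libraries used for reference were NT cells at 1, 2, 4 and 8 h of IL-1β and the matching series of cells transfected with an siRNA pool against *Ift88* (IFT88siRNA), a component of the intraflagellar transport machinery that builds cilia, with 3 libraries per time and siRNA. All 36 libraries therefore came from transfected cells of 1 line, which by the study's methods was conditionally immortalised. No library of unstimulated cells kept for 24 h was among those used, so IL-1β and time in culture cannot be told apart in this comparison. The labels do not say that the libraries came from separate cultures, and p-values measure only the spread between these libraries.

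The 0 h libraries held between 20223532 and 21906468 counts assigned to genes and the 24 h libraries between 25146934 and 26873538, ranges that did not overlap, inside a span of 19337022 to 38304127 over all 36. The 20 most abundant genes took between 5.77 and 6.02% of the counts in each of the 6 libraries, and mitochondrial transcripts 1.1 to 1.22% at 0 h and 0.856 to 1.18% at 24 h. No pair of replicates agreed within sampling noise (chi-square per degree of freedom 2.33 to 2.78 at 0 h and 4.62 to 8.7 at 24 h), and the first principal component of the 6 libraries held 82.1% of the variance. Of 9 chondrocyte markers, *Acan*, *Matn3*, *Col9a1* and *Cnmd* stayed under 1 CPM (counts scaled to a common library total) in all 6 libraries, and the other 5 (*Col2a1*, *Sox9*, *Comp*, *Hapln1* and *Col11a1*) were measured. The summed level of the 9 was 238 to 250 CPM at 0 h and 88.4 to 91.9 CPM at 24 h. All 9 fibroblast and mesenchyme markers were measured, at 10700 to 11700 CPM in sum at 0 h and 8070 to 9450 CPM at 24 h. Markers of both sets were thus measured at 0 h, while *Acan*, which encodes the defining cartilage proteoglycan aggrecan, was too low to test. Leukocyte markers summed to 2.35 to 3.15 CPM at 0 h and 1.25 to 1.85 CPM at 24 h with *Tyrobp* at 0 counts, and endothelial markers to 1.9 to 2.55 and 0.919 to 1.36 CPM with *Tie1* at 0 counts. In bulk RNA, fewer cells of a kind and less RNA per cell cannot be told apart.

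IL-1β is a cytokine of inflamed joints. It binds a receptor made of IL1R1 and its accessory protein, which recruits MYD88 and IRAK kinases and releases NF-κB from its IκB inhibitors, while MAP kinases act on AP-1 factors. In cartilage cells this is known to switch on chemokines, cytokines, inducible nitric oxide synthase, prostaglandin synthesis and matrix-degrading proteases, and to lower the synthesis of cartilage matrix. Feedback inhibitors made in the first hours limit the response.

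At 24 h, 2474 of the 15304 genes that passed the filter on low counts (16.2%) were called, meaning an adjusted p under 0.05 and a fold change over 1.5. Of these, 1025 (6.7%) were higher and 1449 (9.47%) lower at 24 h than at 0 h, so more genes fell than rose. The rises were larger: 229 genes rose and 129 fell by over 4-fold, and 45 rose and 2 fell by over 32-fold. The median log2 fold change was 1.15 among genes called higher and −0.99 among genes called lower, against −0.00067 over all genes tested. Without the fold criterion, 7157 genes had an adjusted p under 0.05. With all 6 libraries thinned to the lowest total, an alternative chosen after seeing the data, 2394 genes were called. In what follows a gene rose or fell only where it was called, and levels are CPM with the replicates in the order R1 to R3. Changes are log2 fold changes ± SE from edgeR's quasi-likelihood fit of the 6 libraries, with Benjamini-Hochberg adjusted p over all genes tested. Groups said not to overlap are those of genes already called, and the share of all genes without overlap is not given. Counts of called list members are to be read against the shares of all genes tested, 6.7% higher and 9.47% lower. A count near these shares says nothing about its list.

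Acute-phase proteins, which the liver secretes in systemic inflammation, had the highest median log2 fold change of the 53 gene lists, 7.13 against −0.00067 over all genes. All 16 members tested, of 25 listed, rose. Those nearly absent at 0 h, such as *Saa1* and *Hp*, passed the filter on low counts only through the 24 h libraries. No other outcome was possible for them, so this count and median depend on the filter. Serum amyloid A3 (*Saa3*, ENSMUSG00000040026, chromosome 7 from 46711998 to 46715700, GRCm38) had the largest fitted rise of the called genes with a mean of at least 50 counts. It stood at 0.209, 0.0819 and 0.0441 CPM at 0 h and 1115, 939 and 1039 CPM at 24 h, a log2 change of 13.07 ± 0.56 (adjusted p = 6.5e-21). Lipocalin 2 (*Lcn2*), an iron-siderophore binder, went from 0.503, 0.368 and 0.53 to 1306, 1197 and 1174 CPM (11.32 ± 0.25; adjusted p = 1.06e-21). The groups were far apart for both genes, and no 0 h library reached 1 CPM. By TPM, a share of the transcripts of a library that is scaled for gene length, *Saa3* was the 15892nd gene at 0 h and the 8th at 24 h, and *Lcn2* moved from 15085th to 20th.

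The neighbouring Saa genes were nearly silent at 0 h. *Saa1*, *Saa2* and *Saa4* had 1 or 2 counts in all over the 0 h libraries, and their ratios of summed, depth-scaled counts were 217 (95% counting interval 59.6 to 1793), 493 (95% counting interval 88.2 to 19520) and 271 (95% counting interval 74.6 to 2240). The 4 Saa genes are the 4 protein-coding genes of a 42.3 kb stretch of chromosome 7 (46711998 to 46754313). All 4 rose, but they passed the filter on low counts only through the 24 h libraries. *Saa1* and *Saa2* are near-identical, and reads between them could be split or lost in counting. Haptoglobin (*Hp*), which binds free hemoglobin, went from 0.126, 0.164 and 0.0441 to 58.1, 49.6 and 51 CPM (8.79 ± 0.53; adjusted p = 2.2e-17). Among the serpin A3 genes, a multigene family whose counts carry the same doubt, *Serpina3f* went from 0.0838, 0.164 and 0.0883 to 28, 31.5 and 26.5 CPM (7.90 ± 0.51) and *Serpina3i* from 1 count in 3 libraries to a ratio of 732 (95% counting interval 131 to 28940). All 4 tested serpin A3 genes of the chromosome 12 cluster rose, of which *Serpina3f* and *Serpina3i* passed the filter only through the 24 h libraries. *Steap4*, a metalloreductase of the inflammatory response, went from 0.921, 0.778 and 0.75 to 92.1, 94.1 and 85.7 CPM (6.76 ± 0.18; adjusted p = 4.65e-19).

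Complement genes rose more often than not. Of 15 members tested, 8 rose and 1 (*Cd59a*, an inhibitor of the membrane attack complex) fell, with a median log2 fold change of 1.18. *C3*, on which all complement routes converge, went from 17.7, 15.2 and 15.2 to 1455, 1288 and 1265 CPM (6.35 ± 0.077; adjusted p = 6.44e-20). Factor B (*Cfb*), the protease of the alternative route, went from 0.251, 0.573 and 0.397 to 9.22, 10.2 and 8.66 CPM (4.47 ± 0.28; adjusted p = 1.78e-12). Both groups of libraries were far apart for these 2 genes. *C4b* changed by 2.79 ± 0.063 and *Serping1*, the C1 inhibitor, by 1.73 ± 0.06. The 4 protein-coding genes of a 124 kb stretch of chromosome 6, *C1ra*, *C1rb*, *C1s1* and *C1s2*, encode the C1 proteases and all rose. They are pairs of close copies, so the share of each is uncertain.

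Promoter sequences are shown for 6 genes that mark the ways in which transcripts behaved: a chemokine and a cytokine (*Cxcl1*, *Il6*), an acute-phase and a complement gene (*Saa3*, *C3*), a collagenase (*Mmp13*) and a contractile gene that fell (*Acta2*). Each is the 250 bases before the annotated start, 5′ to 3′ on the gene's strand, from RefSeq on GRCm38.p6, with matches to 3 motifs in capitals. The motifs were the κB motif of NF-κB, the AP-1 motif TGANTCA and the C/EBP motif TTGCNNAA, searched on both strands, and matches of 1 motif could overlap. The windows were *Cxcl1* on the plus strand at chr5:90890995-90891244, *Il6* on the plus strand at chr5:30012864-30013113, *Saa3* on the minus strand at chr7:46715677-46715926, *C3* on the minus strand at chr17:57228137-57228386, *Mmp13* on the plus strand at chr9:7272264-7272513 and *Acta2* on the minus strand at chr19:34255374-34255623.
Cxcl1: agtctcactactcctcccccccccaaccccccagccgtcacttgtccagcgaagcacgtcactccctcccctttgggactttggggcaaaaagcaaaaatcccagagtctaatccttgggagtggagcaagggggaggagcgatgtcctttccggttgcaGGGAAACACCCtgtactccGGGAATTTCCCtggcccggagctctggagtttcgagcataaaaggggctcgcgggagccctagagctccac
Il6: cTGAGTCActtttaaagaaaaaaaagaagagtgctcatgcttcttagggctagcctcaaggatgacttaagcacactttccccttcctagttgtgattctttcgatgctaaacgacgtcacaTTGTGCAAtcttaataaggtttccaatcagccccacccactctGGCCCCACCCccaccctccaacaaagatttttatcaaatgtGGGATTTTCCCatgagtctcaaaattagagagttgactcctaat
Saa3: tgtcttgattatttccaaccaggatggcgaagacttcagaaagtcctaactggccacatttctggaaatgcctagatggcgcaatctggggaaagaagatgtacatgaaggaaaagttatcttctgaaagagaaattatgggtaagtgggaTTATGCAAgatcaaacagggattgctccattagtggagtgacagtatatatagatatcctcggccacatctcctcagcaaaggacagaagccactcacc
C3: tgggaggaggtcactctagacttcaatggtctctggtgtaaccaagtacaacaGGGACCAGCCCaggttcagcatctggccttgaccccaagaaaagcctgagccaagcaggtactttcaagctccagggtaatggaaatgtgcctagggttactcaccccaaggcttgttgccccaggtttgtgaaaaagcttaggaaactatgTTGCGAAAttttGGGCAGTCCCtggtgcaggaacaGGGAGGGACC
Mmp13: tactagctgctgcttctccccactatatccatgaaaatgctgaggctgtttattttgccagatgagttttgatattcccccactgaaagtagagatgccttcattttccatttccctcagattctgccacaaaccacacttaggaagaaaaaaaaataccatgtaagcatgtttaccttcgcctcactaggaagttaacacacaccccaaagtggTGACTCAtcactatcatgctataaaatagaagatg
Acta2: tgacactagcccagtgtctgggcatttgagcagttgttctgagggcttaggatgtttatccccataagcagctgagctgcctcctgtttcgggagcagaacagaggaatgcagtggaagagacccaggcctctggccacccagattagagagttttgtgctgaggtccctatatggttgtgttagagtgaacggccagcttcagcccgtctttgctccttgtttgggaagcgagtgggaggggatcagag
A match is a run of letters and not a binding site, and nothing about a factor follows from a window without one. Across all genes called higher, 677 of 1024 symbols had a promoter in the table, and 980 of 1449 called lower. The C/EBP letters were in 14.2% of the promoters of genes called higher, in 6.73% of those called lower, in 7.35% of those of tested genes and in 9.55% of all promoters. For AP-1 these shares were 10.3%, 6.33%, 4.48% and 6.87%. The κB letters, a loose pattern, were in 61.2%, 59.3%, 61.7% and 45.4%, so they were about as frequent in genes called lower as in genes called higher.

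All neutrophil-attracting CXC chemokines tested rose. Those nearly absent at 0 h, such as *Cxcl2*, passed the filter on low counts only through the 24 h libraries, so no other outcome was possible for them. The 6 members tested had a median log2 fold change of 6.28, and they occupy a 147 kb stretch of chromosome 5 in which *Pf4* alone of 7 protein-coding genes was too low to test. *Cxcl5* went from 0.377, 0.368 and 0.353 to 863, 909.8 and 831 CPM (11.16 ± 0.26; adjusted p = 1.06e-21). *Cxcl1*, whose promoter is printed above, went from 2.26, 2.58 and 1.99 to 723, 705 and 679 CPM (8.24 ± 0.11; adjusted p = 1.72e-21). By TPM, *Cxcl5* rose from the 15011th to the 70th place and *Cxcl1* from the 11651st to the 54th. *Cxcl3* changed by 6.15 ± 0.49. *Cxcl2*, with 2 counts over the 0 h libraries, had a ratio of 102 (95% counting interval 27.9 to 845) and reached 2.87, 2.57 and 3.15 CPM.

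Among the other CXC chemokines, which draw T cells, *Cxcl10*, *Cxcl11* and *Cxcl16* rose of 4 tested. *Cxcl10* stood at 45.4, 44.5 and 38.9 CPM at 0 h and 236, 214 and 212 CPM at 24 h (2.33 ± 0.063; adjusted p = 2.11e-15), and *Cxcl11* changed by 2.92 ± 0.33. Of 9 CC chemokines and fractalkine tested, 5 rose and the others were not called. *Ccl2*, the main attractant of monocytes, went from 6.32, 8.23 and 6.4 to 391, 366 and 367 CPM (5.71 ± 0.086; adjusted p = 1.44e-19), and its neighbour *Ccl7*, 12 kb end to end with it on chromosome 11, from 2.39, 2.29 and 2.43 to 187, 177 and 183 CPM (6.24 ± 0.097). Neither gene's groups overlapped. *Ccl20* changed by 5.19 ± 0.33, and *Ccl5*, already at 41.7 CPM at 0 h, by 2.88 ± 0.063. The other 9 listed members were too low to test.

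Cytokines were more divided than chemokines. Of 18 tested, 7 rose and 2 fell (*Tnfsf18* and *Ctf1*), with a median of 0.39. Interleukin-6 (*Il6*) went from 0.251, 0.246 and 0.176 to 19.5, 19.1 and 20.4 CPM (6.39 ± 0.31; adjusted p = 3.68e-16), and granulocyte colony-stimulating factor (*Csf3*) from 0.168, 0.0409 and 0.221 to 6.76, 5.09 and 5.83 CPM (5.31 ± 0.49; adjusted p = 3.77e-11). *Lif*, an IL-6 family cytokine, went from 29.8, 31.5 and 28.7 to 99.1, 95.5 and 101 CPM (1.69 ± 0.051; adjusted p = 8.88e-15). The 3 ranges at 24 h lay above those at 0 h. *Tnfsf15* changed by 2.45 ± 0.23, and *Il1rn*, the natural antagonist of the IL-1 receptor, also rose. Tumour necrosis factor (*Tnf*) was too low to test, with 1 count over the 0 h libraries and 18 over the 24 h libraries, a ratio of 15.7 (95% counting interval 2.48 to 655). *Il1a* and *Il1b* themselves were also too low to test.

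**Figure D1:**
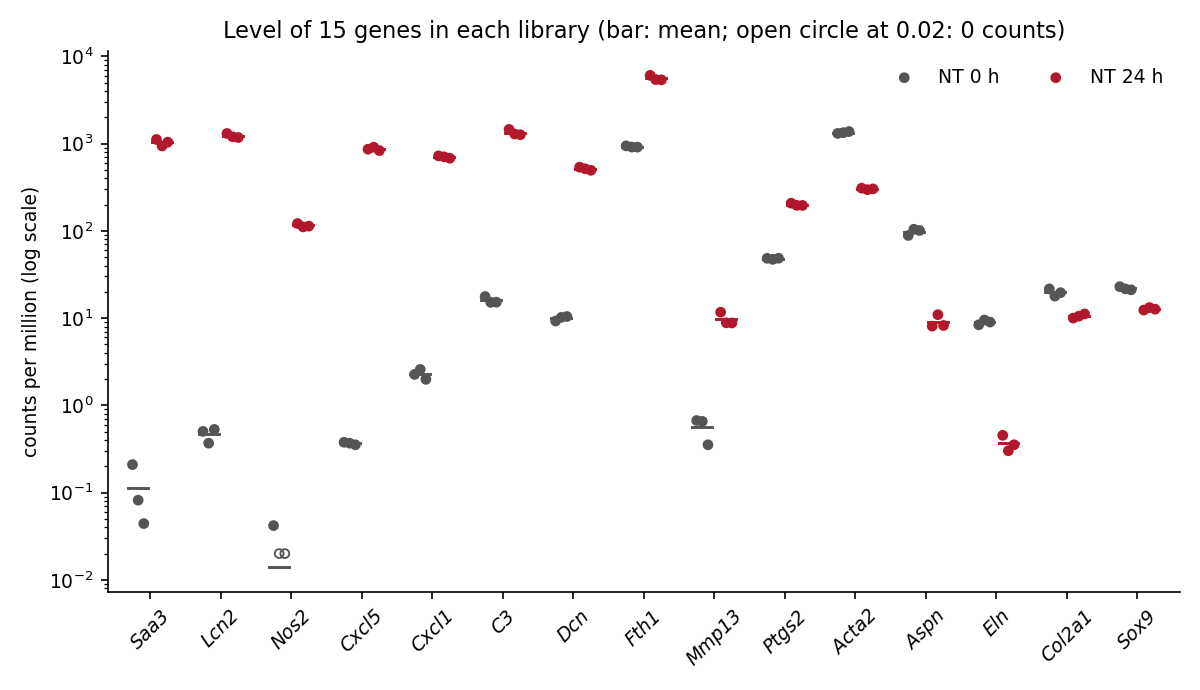
Level of 15 genes in each of the 6 NT libraries (y axis, CPM on a log scale; 3 libraries at 0 h and 3 at 24 h per gene, bars at the means). An open circle at 0.02 marks a library with 0 counts. For every gene shown, the 0 h and 24 h libraries do not overlap. The rule for naming required this of genes among the 15 largest rises or falls.

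Of 16 IL-1 receptor and proximal signalling genes tested, 4 rose, where 6.7% of all genes tested did, with a median of 0.18. The accessory receptor chain *Il1rap* went from 83.1, 87.4 and 83.7 to 168, 168 and 161 CPM (0.94 ± 0.047; adjusted p = 1.29e-11), and the adaptor *Myd88* changed by 0.68 ± 0.048 (under the fold criterion on log2(TPM + 1)). *Irak3*, a brake on this pathway, changed by 1.90 ± 0.22, and *Il1rl1*, the IL-33 receptor, by 1.90 ± 0.064. *Il1r1*, which binds IL-1β, was not called: it stood at 31.5, 31.4 and 30.6 CPM at 0 h and 41.2, 40.9 and 44.6 CPM at 24 h (0.41 ± 0.053), under the fold criterion.

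Among NF-κB subunits and inhibitors, 13 of 25 tested rose, with a median of 0.62. *Bcl3*, a nuclear IκB that pairs with p50 and p52, led them, from 2.6, 2.09 and 1.68 to 51.5, 50.6 and 53.2 CPM (4.57 ± 0.12; adjusted p = 4.19e-17). *Nfkbiz*, the nuclear IκBζ, went from 40.1, 38.4 and 38.8 to 297, 292 and 291 CPM (2.88 ± 0.047; adjusted p = 3.15e-18). *Nfkbia*, the classical IκBα, went from 40.4, 42.8 and 43.5 to 149, 149 and 151 CPM (1.80 ± 0.047; adjusted p = 1.34e-15). These 3 genes of the IκB family were separated between groups without overlap. *Tnip3*, a partner of the A20 deubiquitinase, changed by 3.47 ± 0.21, and *Traf1*, an adaptor, by 2.27 ± 0.42. The subunits *Nfkb1*, *Nfkb2* and *Relb*, the deubiquitinase *Tnfaip3* and the ligase *Birc3* were among the others that rose. Of 11 regulators of cytokine mRNA decay tested, 3 rose. *Zc3h12a*, the endonuclease regnase-1, went from 5.82, 5.36 and 5.25 to 92.5, 81.3 and 82.2 CPM (3.93 ± 0.088), *Arid5a*, which protects such transcripts, changed by 1.57 ± 0.067, and *Zfp36l1*, which destabilises AU-rich mRNA, went from 30.9, 30.2 and 29.6 to 60.3, 60.6 and 64.7 CPM.

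Inducible nitric oxide synthase was switched on. *Nos2* (chromosome 11 from 78920787 to 78960254) had 1, 0 and 0 counts at 0 h and stood at 121, 111 and 113 CPM at 24 h, a ratio of 8170 (95% counting interval 1466 to 322700) with adjusted p = 1.09e-19. The arginine transporter *Slc7a2*, which brings in its substrate, went from 85.6, 92.1 and 84 to 664, 627 and 618 CPM (2.84 ± 0.052; adjusted p = 2.41e-17). *Arg2*, which competes for arginine, changed by 2.47 ± 0.42 at a level near 1 CPM. Of 15 genes of nitric oxide synthesis and arginine supply tested, 4 rose, the fourth being *Gch1*, which makes the cofactor tetrahydrobiopterin, and the median was 0.07. The neuronal synthase *Nos1* fell from 0.461, 1.02 and 0.441 to 0.265, 0.377 and 0.0707 CPM (adjusted p = 0.0186), at under 1 CPM in most libraries. This call rested on single libraries: its adjusted p was 0.192 without 0 h R2 and 0.06 without 24 h R3.

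Prostaglandin genes moved towards synthesis at some steps and away at others, with 7 higher and 3 lower of 14 tested and a median of 0.54. Cyclooxygenase 2 (*Ptgs2*) went from 48.4, 47.2 and 48.5 to 208, 196 and 196 CPM (2.03 ± 0.048; adjusted p = 4.02e-16). Microsomal prostaglandin E synthase (*Ptges*), the next enzyme towards PGE2, went from 2.81, 3.03 and 3.13 to 18.9, 17.6 and 16.1 CPM (2.52 ± 0.12; adjusted p = 9.33e-13). *Hpgd*, which inactivates prostaglandins, fell from 6.53, 5.81 and 6.58 to 0.567, 0.83 and 0.777 CPM (−3.14 ± 0.20; adjusted p = 4.86e-11). Groups did not overlap for any of the 3. The prostaglandin F receptor *Ptgfr* changed by 2.05 ± 0.18, while the PGE2 receptor *Ptger1* and the prostacyclin synthase *Ptgis* fell.

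Of 7 leukocyte adhesion molecules tested, 3 rose and 1 fell, with a median of 0.15. *Vcam1* went from 11.3, 12.3 and 10.9 to 43.2, 43.2 and 37.9 CPM (1.82 ± 0.078; adjusted p = 9.71e-13) and *Icam1* from 3.69, 3.27 and 3.58 to 10.1, 9.62 and 9.36 CPM (1.44 ± 0.11; adjusted p = 3.83e-09). *Cd47*, a signal against phagocytosis, changed by 0.76 ± 0.053, and *Alcam* fell (−0.81 ± 0.087). Of 15 pattern recognition receptors tested, 7 rose, with a median of 0.36. The lipopolysaccharide co-receptor *Cd14* went from 7.29, 6.51 and 7.19 to 37.8, 33.5 and 33.3 CPM (2.29 ± 0.085), *Nod2*, a sensor of bacterial cell wall, changed by 1.91 ± 0.093 and *Tlr2* by 1.70 ± 0.058. *Tlr7* was called (2.20 ± 0.55) at under 1 CPM in every library. One member was also lower without 0 h R1, and 2 were without 24 h R2. Of 6 inflammasome genes tested, *Casp4*, the caspase that senses intracellular lipopolysaccharide, went from 9.21, 10.5 and 9.53 to 61.2, 64.9 and 62.2 CPM (2.66 ± 0.068; adjusted p = 4.44e-16). *Nlrp3* was called at adjusted p = 0.0271 (1.17 ± 0.43) on levels under 1 CPM, and its adjusted p was 0.137 without 0 h R3 and 0.0887 without 24 h R2, and 0.076 by DESeq2. *Casp1* and *Pycard* were too low to test.

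Cytokine receptor and JAK-STAT genes rose in 10 of 24 cases tested, with a median of 0.41. *Socs3*, the inhibitor that IL-6 family signalling induces, went from 21.1, 24.2 and 23 to 139, 142 and 137 CPM (2.59 ± 0.056; adjusted p = 9.38e-17). The oncostatin M receptor *Osmr* went from 55.5, 56.8 and 54.1 to 314, 329.5 and 334 CPM (2.53 ± 0.047; adjusted p = 1.86e-17), and *Il6st*, the signalling chain it shares with the IL-6 and LIF receptors, from 456, 483 and 434 to 1228, 1191 and 1109 CPM (1.34 ± 0.056). *Lifr* and *Stat3* rose too, so several links from cytokine to receptor chain to transcription factor were raised together with *Il6* and *Lif*.

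Interferon-stimulated genes were partly raised, 17 of 38 tested, with a median of 0.51. *Zbp1*, a sensor of Z-form nucleic acid, went from 22.9, 22.3 and 21 to 153, 146 and 146 CPM (2.72 ± 0.054; adjusted p = 2.55e-17). The guanylate-binding proteins *Gbp5* and *Gbp2* changed by 2.22 ± 0.12 and 1.41 ± 0.055, and the antiviral *Mx1* by 1.14 ± 0.12. Of 23 genes of the immunoproteasome and MHC class I presentation, 3 were called, the nonclassical class I genes *H2-T22* (0.97 ± 0.044) and *H2-T23* (0.79 ± 0.052) and the proteasome subunit *Psmb10* (0.63 ± 0.065). *Psmb10* dropped to 0.58, just under the fold criterion of 0.585, without 0 h R3. Class I genes are close copies of each other, and the split of reads between them is uncertain.

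Immediate-early transcription factors moved in both directions. Of 15 AP-1 subunits tested, 4 rose, with a median of 0.21: *Junb* went from 106, 109 and 99.5 to 278, 256 and 251 CPM (1.29 ± 0.054), *Fosl2* from 139.6, 143 and 134 to 336, 336 and 331 CPM (1.24 ± 0.046), *Maff* changed by 0.85 ± 0.057, and *Batf* by 3.26 ± 0.80 at under 1 CPM. *Jun* stood at 118, 117 and 114 CPM at 0 h and 135, 133 and 127 CPM at 24 h (0.15 ± 0.047), under the fold criterion. Among 12 other early genes tested, 2 rose (*Ier3*, 2.50 ± 0.052, and *Ier5*, 0.85 ± 0.048) and 5 fell. *Egr3*, a zinc-finger early gene, fell from 14.4, 16.3 and 14.8 to 2.61, 2.68 and 2.83 CPM (−2.52 ± 0.11; adjusted p = 6.18e-13), and *Egr1*, *Egr2*, *Egr4* and the nuclear receptor *Nr4a1* were the others. Of 5 C/EBP factors tested, 2 rose and 1 fell, with a median of 0.078. *Cebpd* went from 26.1, 23.7 and 25.9 to 326, 304 and 304 CPM (3.60 ± 0.057; adjusted p = 1.66e-18) and *Cebpb* from 5.03, 4.05 and 3.71 to 27.1, 26.8 and 25.7 CPM (2.61 ± 0.10; adjusted p = 1.09e-13), while *Cebpa* fell from 3.98, 5.12 and 4.59 to 1.62, 2.19 and 1.84 CPM (−1.30 ± 0.16). Of 17 MAP kinase phosphatases and Sprouty inhibitors, *Spry3* rose (1.90 ± 0.22) and *Dusp4* (−1.01 ± 0.10) and *Spry1* (−0.95 ± 0.091) fell. A further 1 rose without 0 h R1, 0 h R2 or 24 h R2. These counts were near the shares of all genes tested, 6.7% higher and 9.47% lower.

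Matrix metalloproteinases, the enzymes that cleave collagens and proteoglycans, were raised selectively and from low levels: 5 of 13 tested rose, 1 (*Mmp15*) fell, and the median was −0.21 (0.63 with no filter on low counts). Stromelysin 1 (*Mmp3*) went from 0.0838, 0.123 and 0.309 to 5.03, 4.11 and 5.3 CPM (4.76 ± 0.44; adjusted p = 1.54e-10). Collagenase 3 (*Mmp13*, chromosome 9 from 7272514 to 7283331) went from 0.67, 0.655 and 0.353 to 11.7, 8.83 and 8.8 CPM (4.08 ± 0.28; adjusted p = 1.48e-11). *Mmp19* went from 4.69, 4.34 and 4.19 to 20.1, 21.4 and 19.9 CPM (2.18 ± 0.093; adjusted p = 5.36e-13). None of these 3 overlapped between groups. *Mmp10* changed by 1.56 ± 0.36 at about 1 CPM. *Mmp3*, *Mmp10* and *Mmp13* lie within 238 kb of chromosome 9. The inhibitor *Timp1* went from 122, 117 and 122 to 545, 503 and 496 CPM (2.07 ± 0.051; adjusted p = 8.14e-16), the 75th gene by TPM at 24 h; the other 2 TIMPs tested were not called.

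Of 11 ADAMTS proteases tested, 2 rose and 3 fell. The aggrecanase *Adamts4* went from 8.08, 7.98 and 8.47 to 16, 16.2 and 17.2 CPM (0.98 ± 0.078; adjusted p = 7.45e-09), and the procollagen N-proteinase *Adamts2* changed by 0.90 ± 0.064, while its relative *Adamts14* fell from 2.56, 2.66 and 2.38 to 0.227, 0.566 and 0.353 CPM (−2.74 ± 0.30). *Adamts10*, a fibrillin-binding member, fell (−0.84 ± 0.07), and *Adamts9* was the third to fall. Among serpins outside the A3 family, *Serpinb2* (3.88 ± 0.40) and *Serpinf1* (0.72 ± 0.15), whose protein acts on blood vessels, both rose, but on log2(TPM + 1) *Serpinf1* did not pass (limma adjusted p = 0.368).

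Cartilage matrix genes fell: 8 of 11 tested were lower and 1 was higher, with a median of −0.92 against −0.00067 over all genes. Collagen II (*Col2a1*), the main fibril of cartilage, went from 21.6, 17.9 and 19.6 to 10, 10.5 and 11.2 CPM (−0.92 ± 0.082; adjusted p = 3.7e-08). Its minor partner collagen XI (*Col11a1*) went from 165, 177 and 159.7 to 51.2, 52.2 and 49.1 CPM (−1.75 ± 0.052; adjusted p = 8.82e-15). Collagen X (*Col10a1*), the collagen of hypertrophic cartilage, went from 38.7, 38.7 and 35.8 to 10, 8.15 and 10 CPM (−2.03 ± 0.078; adjusted p = 1.71e-13). No 24 h library of these 3 genes reached the lowest 0 h library. *Cilp2* changed by −1.91 ± 0.20, and *Hapln1*, *Matn1*, *Comp* and *Col9a3* fell too. The exception, *Matn4*, changed by 1.71 ± 0.36 at about 1 CPM. Aggrecan (*Acan*) was too low to test, at 0.419, 0.368 and 0.353 CPM at 0 h and 0.0756, 0.0755 and 0.177 CPM at 24 h, and 9 other listed members were too.

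Among the chondrogenic factors the Sox genes called were lower and 1 Runx gene higher. *Sox9*, the master regulator of chondrocytes, went from 22.9, 21.6 and 21.1 to 12.4, 13.2 and 12.7 CPM (−0.81 ± 0.069; adjusted p = 2.22e-08), *Sox6*, its partner, changed by −0.99 ± 0.25 and *Sox4* by −0.70 ± 0.072, while *Runx1* rose (0.82 ± 0.049). These were the 3 lower and 1 higher of 11 tested. Of 21 other collagens tested, 11 fell, with a median of −0.61; without 0 h R2 or 0 h R3, 1 member was called higher, and without 24 h R1, 2 were. *Col8a2* (−2.21 ± 0.15) and *Col24a1* (−1.83 ± 0.19) fell most and *Col7a1* (−1.18 ± 0.19) and *Col27a1* (−1.13 ± 0.18) followed. *Col1a1*, the main collagen of fibrous tissue, stood at 386, 352 and 341 CPM at 0 h and 287, 256 and 259 CPM at 24 h (−0.45 ± 0.058), under the fold criterion, and *Col1a2*, *Col3a1* and 3 collagen VI chains were called lower.

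Small leucine-rich proteoglycans, which coat collagen fibrils, moved in both directions. Decorin (*Dcn*) went from 9.26, 10.2 and 10.4 to 537, 514 and 494 CPM (5.67 ± 0.069; adjusted p = 1.84e-20), and lumican (*Lum*) from 0.544, 0.409 and 0.397 to 5.25, 5.32 and 4.84 CPM (3.47 ± 0.25; adjusted p = 8.53e-11). They are the only protein-coding genes of a 93.1 kb stretch of chromosome 10 (97479609 to 97572703). Asporin (*Aspn*) fell from 88.5, 104 and 101 to 8.09, 10.9 and 8.23 CPM (−3.46 ± 0.095; adjusted p = 1.34e-15), and osteomodulin (*Omd*) from 27.1, 29.1 and 28.2 to 3.06, 3.02 and 2.47 CPM (−3.33 ± 0.10; adjusted p = 2.59e-15). *Aspn*, *Omd*, *Ogn* and *Ecm2* are the 4 protein-coding genes of a 120 kb stretch of chromosome 13 (49504810 to 49624501), and all 4 fell. On chromosome 1, in contrast, *Prelp* rose and *Fmod*, 138 kb end to end with it, fell. In all, 3 rose and 5 fell of 11 tested (median −0.45), so the median describes neither direction.

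Among 18 genes of collagen processing, 4 rose and 2 fell. The cross-linking enzyme lysyl oxidase (*Lox*) went from 649, 713 and 653 to 1519, 1532 and 1363 CPM (1.10 ± 0.059; adjusted p = 3.86e-11), the prolyl hydroxylase *P4ha2* changed by 1.16 ± 0.05, *Loxl2* by 0.71 ± 0.12, and the proteinase enhancer *Pcolce2* fell (−0.81 ± 0.073). Of 12 hyaluronan genes, 3 rose and 3 fell; without 0 h R2, 5 were higher. *Tnfaip6*, which moves heavy chains onto hyaluronan, went from 2.14, 2.66 and 3.22 to 9.9, 8.94 and 10.7 CPM (1.86 ± 0.14), the hyaluronan-binding proteoglycan versican (*Vcan*) changed by 1.12 ± 0.085 and the joint lubricant *Prg4* by 1.11 ± 0.22, while the link protein *Hapln3* fell (−1.16 ± 0.22). On log2(TPM + 1) *Prg4* did not pass (limma adjusted p = 0.0976).

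Contractile and SRF target genes held the largest number of falls of the 53 lists: 15 of 23 tested fell and 1 (*Tagln2*) rose, with a median of −0.88. Smooth muscle α-actin (*Acta2*) fell from 1308, 1334 and 1375 to 308, 296 and 303 CPM (−2.17 ± 0.046; adjusted p = 1.32e-16). The γ-actin *Actg2* fell from 32.9, 33.7 and 36.5 to 10.9, 10.4 and 9.61 CPM (−1.77 ± 0.073; adjusted p = 6.17e-13), and *Lmod1*, which nucleates actin filaments, from 14.6, 17.6 and 15.8 to 3.82, 4.68 and 4.31 CPM (−1.93 ± 0.11; adjusted p = 3.13e-11). None of the 3 overlapped between groups. *Acta1* changed by −2.13 ± 0.25, and calponins, tropomyosins, myosin chains and *Ctgf* were among the others that fell. The actin genes are close copies, and counts of their shared stretches are uncertain.

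Other large falls came from genes of varied function. *Krt15*, an epithelial keratin, fell most, from 5.24, 6.02 and 5.69 to 0.189, 0.0377 and 0.0707 CPM (−5.80 ± 0.51; adjusted p = 7.39e-12). Elastin (*Eln*) fell from 8.38, 9.5 and 9 to 0.454, 0.302 and 0.353 CPM (−4.61 ± 0.25; adjusted p = 2.85e-13). The integrin chain *Itga8* fell from 82.6, 88.8 and 86.9 to 5.63, 6.41 and 6.01 CPM (−3.87 ± 0.072; adjusted p = 3.33e-18). The integrin-like *Itgbl1* changed by −3.91 ± 0.22, thyroglobulin (*Tg*) by −4.13 ± 0.22 and the xenobiotic-metabolising *Cyp1a1* by −3.48 ± 0.26. The remaining members of the 15 largest falls were *4833423E24Rik* (−3.51 ± 0.097), the membrane protein *Ano5* (−3.37 ± 0.22), the secreted *C1qtnf3* (−3.15 ± 0.13), myocilin (*Myoc*, −3.03 ± 0.25), the IL-17 receptor chain *Il17rb* (−2.90 ± 0.23) and the sarcomere protein *Myom1* (−2.87 ± 0.25), beside *Aspn*, *Omd* and *Hpgd*. Among the 15 largest rises not yet given were neurotensin (*Nts*, from 0.0838, 0.0409 and 0.0441 to 36.7, 33.1 and 29.5 CPM, 9.05 ± 0.77), *Acod1*, which makes itaconate (7.50 ± 0.71), and 2 genes with 3 counts over the 0 h libraries. These were the pantetheinase *Vnn3*, with a ratio of 525 (95% counting interval 179 to 2547), and *Rassf9*, with a ratio of 164 (95% counting interval 55.7 to 796).

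**Figure D2:**
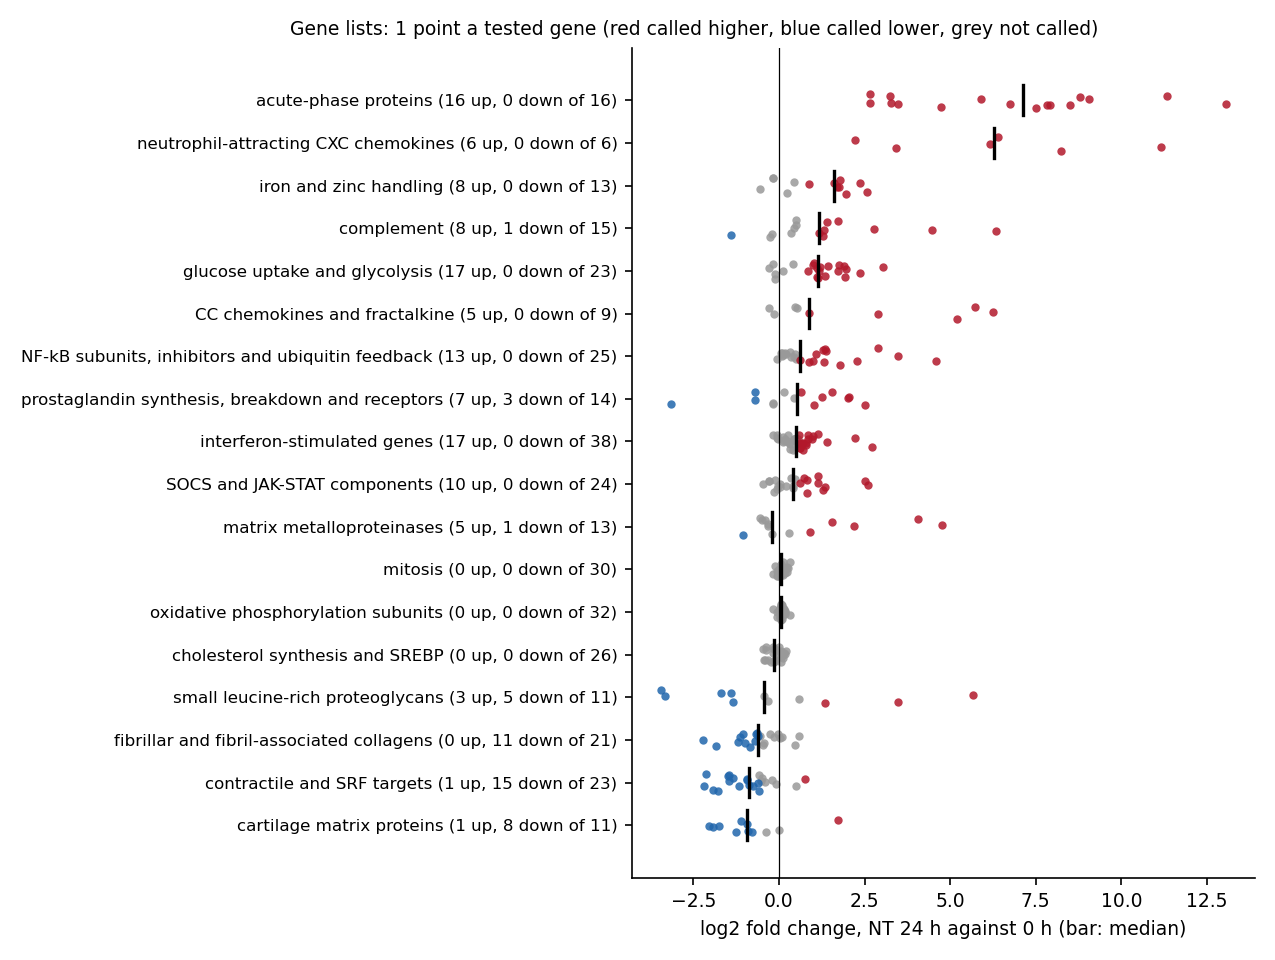
Log2 fold change, 24 h against 0 h in NT cells, of each tested member of 18 gene lists (x axis; 1 point per gene, coloured if called, with a bar at the list's median). Acute-phase and chemokine lists lie to the right, contractile, collagen and cartilage matrix lists mostly to the left, and oxidative phosphorylation near 0.

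Of 13 iron and zinc handling genes tested, 8 rose and 5 were not called, with a median of 1.62. Ferritin heavy chain (*Fth1*), which stores iron, went from 942, 913 and 911 to 6058, 5418 and 5380 CPM (2.58 ± 0.057; adjusted p = 3.08e-16) and was the 2nd gene by TPM at 24 h. The iron importer *Slc11a2* went from 54.6, 50.4 and 51.8 to 269, 274 and 279 CPM (2.36 ± 0.047; adjusted p = 4.19e-17), and the transferrin receptor *Tfrc* from 97.3, 106 and 106 to 359, 371 and 352 CPM (1.78 ± 0.05; adjusted p = 4.06e-15). The ferritin light chain gene *Ftl1* was not called (−0.16 ± 0.046). *Scara5*, a ferritin receptor, changed by 1.97 ± 0.095. Of 24 genes of oxidative stress defence, 7 rose, with a median of 0.22 (1 fell without 0 h R1, 24 h R1 or 24 h R2). The mitochondrial superoxide dismutase *Sod2* went from 37, 39.6 and 36.5 to 386, 384 and 363 CPM (3.29 ± 0.053; adjusted p = 3.04e-18) and the secreted *Sod3* changed by 1.39 ± 0.051. The metal-binding metallothioneins *Mt2* and *Mt1* changed by 3.39 ± 0.058 and 1.69 ± 0.057, *Mt2* being the 16th gene by TPM at 24 h.

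Of 23 genes of glucose uptake and glycolysis, 17 rose and 6 were not called, with a median of 1.16. The lactate exporter *Slc16a3* went from 4.06, 5.04 and 4.9 to 40, 38.1 and 40.1 CPM (3.05 ± 0.088; adjusted p = 1.23e-15). *Pfkfb3*, which makes the activator of phosphofructokinase, went from 7.54, 7.82 and 8.69 to 39.6, 44.2 and 42.1 CPM (2.36 ± 0.077; adjusted p = 1.32e-14). *Pdk1*, which holds pyruvate back from mitochondria, went from 20.7, 21.9 and 22.7 to 83.4, 93.1 and 81.2 CPM (1.95 ± 0.065; adjusted p = 3.13e-14). Groups stayed apart for all 3, and *Slc2a6*, a sugar transporter, changed by 1.92 ± 0.096. *Hk2*, *Ldha*, *Pgk1*, *Gapdh* and *Pkm* were among the others that rose. Of 32 oxidative phosphorylation subunits none was called, by edgeR, DESeq2 or limma on log2(TPM + 1): 7 had an unadjusted p under 0.05 in edgeR's model, and changes ran from −0.17 to 0.32.

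Cholesterol synthesis likewise had no called member of 26 with these 3 tools, with 17 at an unadjusted p under 0.05 in edgeR's model and changes from −0.48 to 0.20. One member was called lower without 24 h R3. Among 21 ER stress and ATF4 targets, *Vldlr*, a lipoprotein receptor, fell (−0.87 ± 0.06) and 1 rose without 0 h R3, 24 h R1 or 24 h R3. Of 15 adipocyte differentiation and lipid storage genes, 3 rose and 5 fell (3 without 0 h R3). The lipid chaperone *Fabp4* went from 2.09, 1.92 and 1.81 to 36.9, 32.7 and 32.5 CPM (4.10 ± 0.13; adjusted p = 6.06e-16) and *Klf15* changed by 2.39 ± 0.23, whereas the lipid droplet protein *Plin4* (−2.26 ± 0.31), *Zfp423* (−1.63 ± 0.21), *Pparg* and *Lpl* fell. On log2(TPM + 1) *Zfp423* did not pass (limma adjusted p = 0.0566). *Adipoq* and *Plin1*, which define adipocytes, had 0 counts in all 6 libraries.

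Genes of DNA replication and mitosis held no call between 0 and 24 h. No member was called of 30 DNA replication genes (changes −0.096 to 0.37) or 30 mitosis genes (−0.19 to 0.32) by edgeR, DESeq2 or limma on log2(TPM + 1), although 9 and 12 had an unadjusted p under 0.05 in edgeR's model. The genes of G1 control moved: of 18, 6 fell and 2 rose. Cyclin D2 (*Ccnd2*) went from 746, 765 and 734 to 344, 338 and 339.6 CPM (−1.16 ± 0.045; adjusted p = 3.56e-13), cyclin D1 (*Ccnd1*) from 340.5, 332 and 319.7 to 213, 192 and 192 CPM (−0.76 ± 0.052), and *Myc* rose from 62.9, 63.9 and 65.8 to 105, 105 and 113 CPM (0.72 ± 0.046). The 34 cytosolic ribosomal protein genes all had values above 0 with TMM scaling (0.11 to 0.39, median 0.27). On log2(TPM + 1), where the median of all genes shifted to −0.116, 32 of 34 did, with a median of 0.141. None passed the fold criterion with edgeR, DESeq2 or limma on log2(TPM + 1), and 33 had an unadjusted p under 0.05 in edgeR's model. Of 37 intraflagellar transport and BBSome genes, *Bbs7* was called lower (−0.63 ± 0.053), the median was −0.20, and *Ift88* stood at 9.09, 8.6 and 9.31 CPM at 0 h and 6.12, 6.45 and 6.18 CPM at 24 h (−0.55 ± 0.094), under the fold criterion.

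Signalling families of development were mixed. Of 33 TGF-β, BMP and activin genes, 7 rose and 6 fell. The co-receptor *Tgfbr3* went from 85.9, 92.6 and 84.4 to 355, 345 and 337 CPM (1.95 ± 0.05), the BMP antagonist *Grem1* from 25.9, 26.6 and 24.9 to 91.3, 83.8 and 84.3 CPM (1.72 ± 0.056), the joint growth factor *Gdf5* changed by 2.81 ± 0.25 and *Bmp2* by 1.58 ± 0.40 at about 1 CPM. Of 33 genes of growth factor families, 9 rose and 8 fell. Epiregulin (*Ereg*), an EGF receptor ligand, went from 64.1, 67.7 and 66.5 to 319, 319 and 303 CPM (2.22 ± 0.049), *Vegfa*, the main angiogenic factor, from 31.4, 29.8 and 30.3 to 106, 108 and 116 CPM (1.82 ± 0.05), while the IGF-binding *Igfbp5* (−2.61 ± 0.21) and the cartilage growth factor *Fgf18* (−2.04 ± 0.26) fell.

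Of 23 Wnt pathway genes, 5 fell and 2 rose. The Wnt inhibitors *Wif1* (−3.19 ± 0.69) and *Dkk2* (−1.83 ± 0.17) and the receptor *Lgr5* (−2.48 ± 0.47) fell, and *Rspo3*, which strengthens Wnt signalling, went from 39.5, 45.1 and 43.3 to 99.8, 109 and 101 CPM (1.25 ± 0.057; adjusted p = 3.18e-12). Of 15 Hedgehog genes, the receptor and target *Ptch1* went from 43.9, 45.9 and 43.6 to 266, 247 and 244 CPM (2.48 ± 0.052; adjusted p = 9.56e-17), the ligand trap *Hhip* changed by 1.93 ± 0.24 and the co-receptor *Gas1* by 0.83 ± 0.051. The pathway's own effector and target *Gli1* was called lower (−0.95 ± 0.29) at under 1 CPM, with an adjusted p of 0.0609 without 24 h R2 and 0.0732 by DESeq2, and *Gli2* was the other lower member; 1 of the 2 was lower without 0 h R1. Of 19 circadian clock genes, 5 rose and 3 fell, with *Hlf* (1.95 ± 0.20) and *Nfil3* (1.16 ± 0.061) higher and *Dbp* (−1.35 ± 0.14) lower. Of 11 bradykinin receptors and RGS proteins, 6 rose and 2 fell. The inducible B1 receptor *Bdkrb1* went from 0.544, 0.696 and 0.353 to 12.2, 12.2 and 12.3 CPM (4.47 ± 0.23; adjusted p = 1.06e-13) and *Rgs16* changed by 2.65 ± 0.13.

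Longer lists of cell type markers gave 2 higher (*Ly6a*, 1.55 ± 0.054, and *Pdgfra*, 1.14 ± 0.067) and 2 lower (*Thy1*, −1.07 ± 0.11, and *Vim*, −0.99 ± 0.051) of 13 fibroblast and mesenchyme genes tested. Of 17 macrophage and leukocyte genes, 13 were too low to test, and of the 4 tested *Lyz2* (−1.09 ± 0.29) and *Fcgr1* (−1.04 ± 0.36) were lower at levels near 1 CPM. The *Fcgr1* call was lost without 0 h R2 (adjusted p = 0.118) and by DESeq2 (adjusted p = 0.0847), and 1 of these genes was lower without 0 h R3, 24 h R1 or 24 h R2 too. With 1 library fewer at 0 h the filter let in a further leukocyte gene, called higher. Of 10 endothelial genes, 2 were tested and *Tek* fell (−0.96 ± 0.26); 3 were lower without 24 h R1, and 2 without any 1 of 0 h R1, 0 h R3, 24 h R2 and 24 h R3. The part of other cell types in the rises of acute-phase and chemokine genes was not tested.

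The intermediate times showed how the 24 h state was reached. Of the 1025 genes called higher, the mean level was highest at 24 h for 443, at 8 h for 165, at 4 h for 316, at 2 h for 67 and at 1 h for 34. Of the 1449 called lower, the mean level was lowest at 24 h for 845. Against 8 h, with the same 24 h libraries, 569 genes were higher (3.7% of 15374 tested) and 1400 lower (9.11%). Some of the largest rises were still under way. *Saa3* had a mean of 1.11 CPM at 1 h, 5.6 at 2 h, 164 at 4 h, 422 at 8 h and 1031 at 24 h, and the change from 8 to 24 h was 1.27 ± 0.07 (adjusted p = 3.65e-08). *C3* first dipped, with 16 CPM at 0 h and 5.78 CPM at 1 h, then reached 288 CPM at 8 h and 1336 CPM at 24 h (2.19 ± 0.057 from 8 to 24 h). *Dcn* went from 149.8 to 515 CPM over these hours (1.76 ± 0.048). Of the 16 acute-phase genes, 11 were higher at 24 than at 8 h and 1 was lower, and of 23 glycolysis genes 13 were higher and 2 lower. *Slc16a3* stood at 4.36 CPM at 4 h, 8.55 CPM at 8 h and 39.4 CPM at 24 h.

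Others had stood higher at an earlier time than at 24 h. *Nfkbia* had its highest mean at 1 h, 877 CPM, and was at 154 CPM at 8 h and 149.6 CPM at 24 h, a level held above 0 h. *Cxcl1* reached 1412 CPM within 1 h and held 702 CPM at the end, with no call between 8 and 24 h (0.37 ± 0.046). *Cxcl10* had 3420 CPM at 4 h and fell to 221 CPM (−1.86 ± 0.056 from 8 to 24 h). *Nos2* had 341 CPM at 4 h, 103 CPM at 8 h and 115 CPM at 24 h, and its change between the last 2 times was under the fold criterion (0.14 ± 0.052; adjusted p = 0.0438). *Il6* fell from 79.5 CPM at 4 h to 19.7 CPM (−1.53 ± 0.053 from 8 h), and *Mmp13* from 23.3 CPM at 8 h to 9.77 CPM (−1.27 ± 0.11). Of the 38 interferon-stimulated genes, 35 were lower at 24 than at 8 h, against 9.11% of all genes tested. *Mx1* went from 347 CPM at 4 h to 11.2 CPM, and *Tnf* from 12.2 CPM at 1 h to 0.22 CPM.

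A further group crossed the 0 h level on the way. *Acta2* had means of 1339 CPM at 0 h, 4448 CPM at 2 h, 2560 CPM at 8 h and 302 CPM at 24 h, a change from 8 to 24 h of −3.10 ± 0.043 (adjusted p = 1.61e-12). *Col11a1* had 167, 399, 134 and 50.8 CPM at these times, and *Aspn* 97.9, 192, 41 and 9.09 CPM. *Egr3* rose from 15.2 to 897 CPM within 1 h before it reached 2.7 CPM. Of the 23 contractile genes tested, 15 were lower at 24 than at 8 h, against 9.11% of all genes tested. By mean log2 CPM, the median change of this list from 0 h was 0.27 at 8 h and −0.85 at 24 h. In cell cycle genes, 17 of 30 mitosis genes were higher at 24 than at 8 h, against 3.7% of all genes tested. None of the 30 had shown a call against 0 h.

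**Figure D3:**
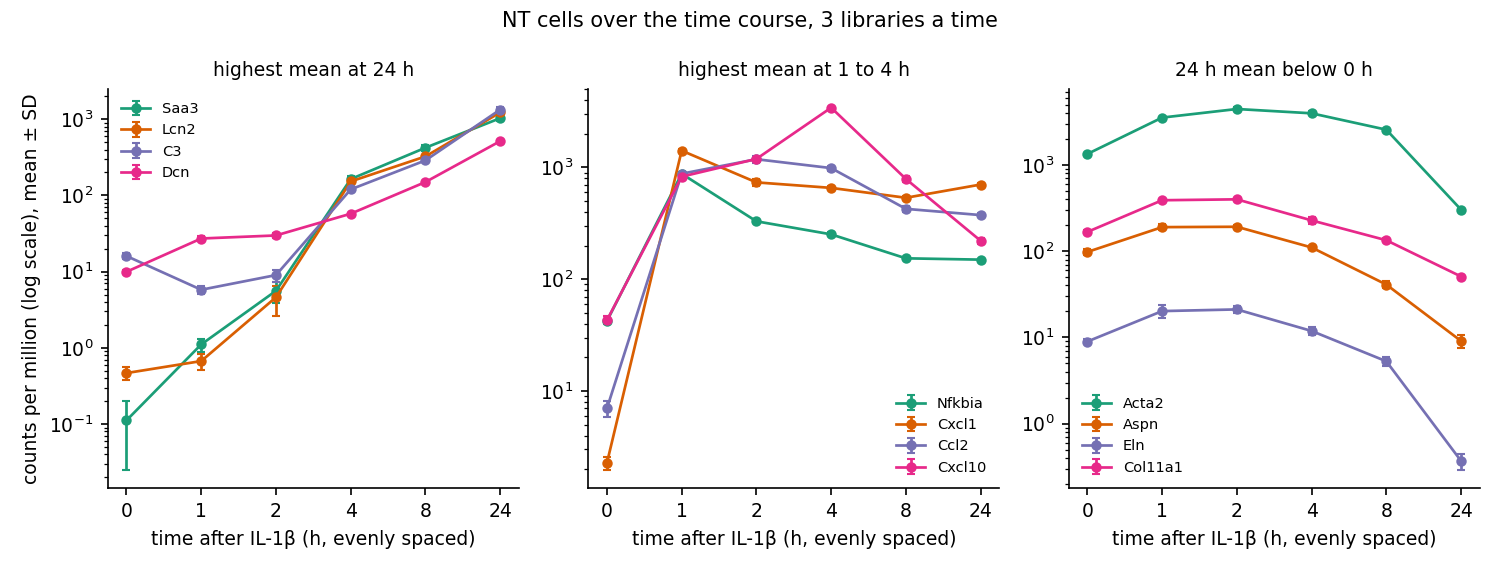
Mean level ± SD (n = 3 libraries per time) of 12 genes in NT cells at 0, 1, 2, 4, 8 and 24 h of IL-1β (x axis, time on an even spacing; y axis, CPM on a log scale). The panels hold genes highest at 24 h (Saa3, Lcn2, C3, Dcn), genes highest at 1 to 4 h that stayed above 0 h (Nfkbia, Cxcl1, Ccl2, Cxcl10) and genes lower at 24 h than at 0 h (Acta2, Aspn, Eln, Col11a1).

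The same interval was set beside cells transfected with *Ift88* siRNA, whose libraries are not those of NT cells. *Ift88* stood at 2.57, 2.88 and 2.81 CPM in the IFT88siRNA libraries at 0 h and 2.02, 2.3 and 2.41 CPM at 24 h, against 9.09, 8.6 and 9.31 and 6.12, 6.45 and 6.18 CPM in NT. The targeted transcript was thus lower in all 6 IFT88siRNA libraries. In these cells 2257 genes were called at 24 h against 0 h, and 1774 were called in both in the same direction, 71.7% of the NT calls and 78.6% of the IFT88siRNA calls. Across 15062 genes tested in both, Pearson's r of the log2 fold changes was 0.935, a description across genes, which are not independent replicates. Of 2385 genes called in NT and tested in IFT88siRNA, 2358 had the same sign.

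**Figure D4:**
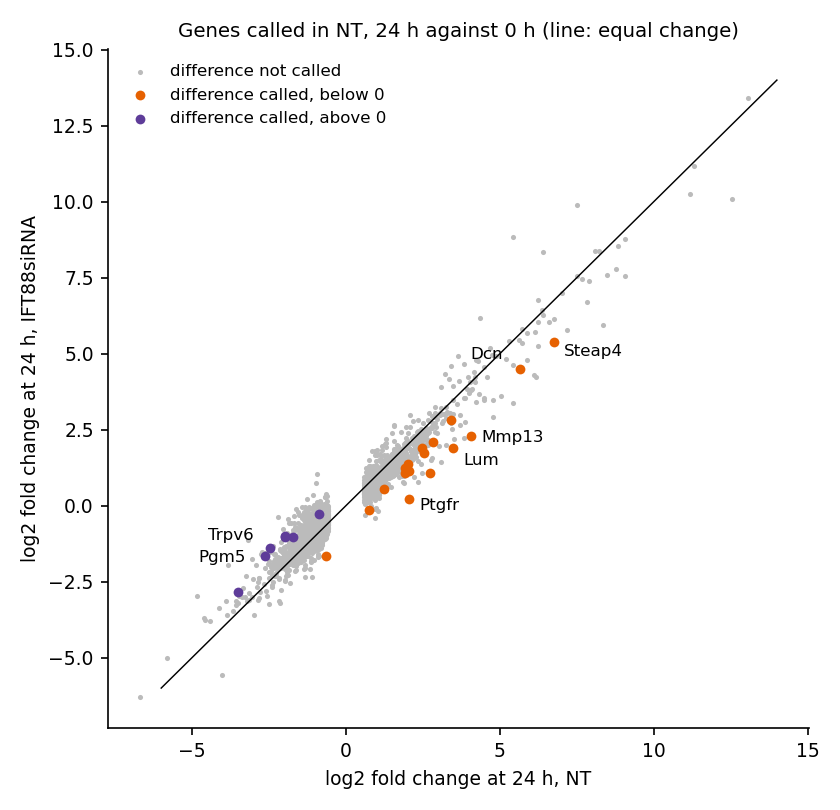
Log2 fold change at 24 h against 0 h in NT cells (x axis) and IFT88siRNA cells (y axis) for the 2385 genes called in NT and tested in both, which were chosen on their NT values. Coloured points passed the test of the difference; Dcn, Lum, Ptgfr and Mmp13 lie under the line of equal change.

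The difference of the 2 changes passed the same criteria for 30 of 15981 genes (0.188%), 11 above and 19 below 0. The count was 108 without NT 24 h R3 and 19 without NT 0 h R1, NT 0 h R3 or IFT88siRNA 24 h R2. Of the 19 below 0, 16 had risen in NT cells, and of the 11 above 0, 7 had fallen, so in those 23 genes the change was smaller with *Ift88* siRNA. Among all genes tested in NT cells, 6.7% rose and 9.47% fell. The NT calls and the difference share the same NT libraries, so an NT change overstated by sampling favours this pattern, and the counts are a description only. *Dcn* changed by 5.67 ± 0.069 in NT and 4.49 ± 0.056 in IFT88siRNA, a difference of −1.18 ± 0.092 (adjusted p = 8.18e-08), and its neighbour *Lum* by 3.47 ± 0.25 and 1.89 ± 0.16, a difference of −1.57 ± 0.28 (adjusted p = 0.00299). *Ptgfr* changed by 2.05 ± 0.18 in NT and 0.21 ± 0.12 in IFT88siRNA (−1.84 ± 0.23; adjusted p = 7.45e-05). Among genes of the inflammatory programme, *Steap4* (−1.36 ± 0.21), *Ptges* (−0.78 ± 0.17) and *Slc7a2* (−0.75 ± 0.077) differed as well. *Ptch1*, the Hedgehog receptor, changed by 2.48 ± 0.052 in NT and 1.88 ± 0.041 in IFT88siRNA, a difference of −0.60 ± 0.068. Its means at 24 h were 252 ± 11.8 CPM (SD, n = 3) in NT and 209 ± 0.925 CPM in IFT88siRNA. The difference compares changes, so the 0 h levels enter it as well as these means. Large changes in NT cells were thus found with and without a called difference, as *Steap4* had risen by 6.76 in NT, more than *C3*. No such difference was called for *Nos2*, *Ptgs2*, *Il6*, *Csf3*, *Lif*, *Ccl2* or *Mmp3*. Nor was one called for any member of the chemokine, cytokine or NF-κB lists. A difference that was not called does not show that the changes were equal. *Saa3*, *Lcn2*, *C3* and *Acta2* had no called difference either. *Saa3* changed by 13.07 ± 0.56 and 13.42 ± 0.62 (difference 0.34 ± 0.92, an imprecise value) and *Lcn2* by 11.32 ± 0.25 and 11.16 ± 0.21 (−0.16 ± 0.34). *C3* changed by 6.35 ± 0.077 and 6.43 ± 0.068 (0.08 ± 0.11), and *Acta2* by −2.17 ± 0.046 and −1.78 ± 0.053 (0.39 ± 0.074, adjusted p = 0.00975 by edgeR's test, under the fold criterion).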

How the data were processed

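Poly(A) RNA of the 36 samples was sequenced paired-end. The authors aligned reads to the mouse genome (GRCm38; the submitters' processing notes name HISAT2 2.1.0, featureCounts of Subread 1.6.3 and Salmon 0.9.1) and deposited raw counts per gene and, from Salmon, TPM values per gene. Reads were counted with default parameters, which ignore strand and leave out reads that map to several places or overlap several genes, so counts of antisense partners, overlapping genes and near-identical copies are uncertain. No molecular identifiers were used, so intervals cover counting error only. Every count column matched a sample label (0 did not).

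From the deposited counts, genes passing edgeR's filterByExpr were tested with TMM scaling and the quasi-likelihood test (edgeR 4.0.16, R 4.3.3), without a replicate block, on the groups compared: 6 libraries for 24 h against 0 h and for 24 h against 8 h, 12 for the difference between siRNA groups. Standard errors came from the fitted information matrix and the gene's quasi-likelihood variance. A call needed an adjusted p under 0.05 and a fold change over 1.5. Printed CPM were scaled by TMM over all 36 libraries. Ratios of genes with 1 to 3 counts at 0 h carry 95% exact counting intervals. Named genes were the 15 largest rises and falls with a mean of at least 50 counts and groups that did not overlap, up to 4 called members of each of 53 gene lists, genes the study's question names, and the 5 largest differences in each direction among genes with that mean; others are named to complete a list and were chosen after their values were seen. The members and the lists were chosen with earlier results of these data known. Alternatives were DESeq2 1.42.0, other scalings and filters, limma 3.58.1 on log2(TPM + 1) or log2(TPM + 0.1), wider fits, a replicate block, each library left out, and thinning to the lowest total, chosen after seeing the data. The fits were tested on simulated data. Of the gene lists, 1 is not reported here. Labels and methods give different siRNA concentrations, which are not used here.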

Additional observations from a re-analysis of the deposited data

Results flagged for a closer look

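The results below were singled out among the genes that the rules for naming had selected. In these genes the 24 h change differed between IFT88siRNA and NT cells by edgeR's test of the difference itself. The adjusted p was under 0.05 and the difference passed the fold criterion. The difference was called for 30 genes in all, and those not selected for naming are left out here. Each value is the log2 change in IFT88siRNA minus that in NT, from 12 libraries. In genes that had risen in NT cells the difference was −1.84 for *Ptgfr*, −1.78 for *Mmp13*, −1.57 for *Lum*, −1.36 for *Steap4*, −1.18 for *Dcn*, −0.78 for *Ptges*, −0.75 for *Slc7a2*, −0.70 for *Rspo3* and −0.60 for *Ptch1*. In genes that had fallen it was 1.07 for *Trpv6*, a calcium channel, 0.99 for *Pgm5*, 0.96 for *Pkp1*, a desmosome protein, 0.95 for *Aqp5*, a water channel, and 0.68 for *4833423E24Rik*. For *Gm26873*, which was not called in NT cells, it was 1.03.

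The differences of *Mmp13*, *Aqp5*, *Gm26873*, *Pgm5*, *Pkp1* and *Trpv6* did not pass the test when 1 of the libraries was left out. For *Mmp13* the highest such adjusted p was 0.236, without IFT88siRNA 0 h R1, and for *Pgm5* it was 0.241, without IFT88siRNA 24 h R2. On log2(TPM + 1), *Lum*, *Steap4*, *Gm26873*, *Trpv6*, *Pgm5* and *Pkp1* did not pass, and *Ptgfr*, which passed there, had an adjusted p of 0.0771 with a pseudocount of 0.1 and 0.116 with no filter. *Mmp13* had 0.0504 with upper-quartile scaling and 0.216 with a pseudocount of 0.1, and in the fit of all 36 libraries *Gm26873* had 0.418 and *Pkp1* 0.142. Why these changes differed was not tested.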

How the results depend on the processing

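With no fold criterion, 7157 genes were called (3645 higher, 3512 lower), 91 for the difference between siRNA groups and 6785 for 24 h against 8 h. With limma on TPM, 662 genes were higher on log2(TPM + 1) and 679 with no filter, the difference was called for 13 genes, for 15 with a pseudocount of 0.1 and for 8 with no filter, and 24 h against 8 h gave 1260 with no filter. TPM shifted the median of all genes to −0.116 (−0.125 with 0.1), so smaller changes are relative to that shift. With no filter on counts, the difference was called for 46 genes. Leaving out each library gave 2352 to 2795 calls (982 to 1041 higher, 1338 to 1754 lower), 19 to 108 for the difference and 1809 to 2116 against 8 h. DESeq2 called 2175 genes and thinning to the lowest total 2394. The cause of these shifts was not tested.

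No pairing of the libraries by replicate number was visible: deviations of same-numbered 0 h and 24 h libraries correlated at −0.0323, 0.0498 and 0.00348, and 0 h R1 correlated best with 24 h R3 (0.101). With so few libraries per group, such correlations cannot exclude that equal numbers share a culture or batch. With the replicate number as a block, 2468 genes were called (1019 higher, 1449 lower), 2429 of the 2474 among them. The block gave 27 calls for the difference and 1969 against 8 h; with it the difference of *Pgm5* had an adjusted p of 0.0741.

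Of 3394 values of 202 named genes under the alternatives, 3326 kept direction and side of the threshold, 59 (of 27 genes) lost the call, 9 gained it and 0 changed direction. On log2(TPM + 1) the 24 h calls of *Myd88*, *Serpinf1*, *Col27a1*, *Loxl2*, *Prg4*, *Psmb10*, *Mycl* and *Zfp423* were lost, with DESeq2 those of *Nlrp3*, *Gli1* and *Fcgr1*, and without 1 library those of *Nos1*, *Psmb10*, *Nlrp3*, *Gli1* and *Fcgr1*. Of 1908 counts of list members, 1750 stayed within 1.5 times. Depth limits genes under about 1 CPM.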

Other observations

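The 6 gene groups below were listed after values of these data had been seen, and their counts are given as a description. Of 18 hypoxia-associated genes tested, 10 rose at 24 h against 0 h and 1 fell (*Car12*), with a median log2 fold change of 0.62 against −0.00067 over all genes. The mitophagy receptor *Bnip3*, the carbonic anhydrase *Car9* and the hypoxia-inducible factor *Hif1a* were among those that rose, and 10 of the 18 were higher at 24 than at 8 h. All 4 antimicrobial and granule protein genes tested, of 17 listed, rose: the antiprotease *Slpi* (6.58), the chitinase-like *Chil1* (6.10), the cathelicidin *Camp* (5.42) and the calcium-binding *S100a8* (4.69), values being log2 fold changes. The other 13 were too low to test. A gene too low at 0 h passes the filter only if it is higher at 24 h, so this count depends on the filter. The neutrophil granule genes *Elane*, *Mpo*, *Ltf* and *Ngp*, and *S100a9*, were too low to test.

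Elastic fibre and basement membrane genes were divided, with 4 higher (*Lama4*, *Fbln1*, *Nid1* and *Fbln2*) and 5 lower (*Eln*, *Lama2*, *Mfap2*, *Lama5* and *Nid2*) of 19 tested. Of 15 integrin genes, 7 fell and 2 rose (*Itga7* and *Itgb8*). Among 10 enzymes of oxysterol, retinoid and aryl hydrocarbon metabolism, *Ch25h*, which makes 25-hydroxycholesterol, rose by a log2 fold change of 7.01, *Cyp1b1* rose too, and 5 fell (*Cyp1a1*, *Cyp26b1*, *Ahrr*, *Aldh1a3* and *Aldh1a1*). Of 13 TNF receptor superfamily genes, 6 rose, led by *Tnfrsf9* (4.17), and 4 fell, among them osteoprotegerin (*Tnfrsf11b*).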
